A study of Mus musculus with 2 samples.

Results

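LHX6 is a LIM homeodomain transcription factor of the first pharyngeal arch mesenchyme, and the regions described here are the places inside genes, close to but not at the gene start, where chromatin bound by it was enriched. They were chosen from the deposited list of LHX6-enriched intervals by 4 conditions on annotation alone: no overlapping CpG island, more than 1 kb from every listed gene start, inside at least 1 gene, and at most 20 kb from the start of that gene. The rule took 326 of 6566 LHX6 intervals (4.96%). They are called proximal intragenic intervals below, and the gene with the nearest start among those that contain an interval is called its host. One library was made from chromatin precipitated with a rabbit polyclonal antibody to LHX6, from 20 µg of chromatin, and the other from input, chromatin that was not precipitated. Both came from the maxillary arches (the embryonic upper jaw) of wild-type CD-1 mice at E11.5, pooled from 47 embryos. Neither group had a replicate, so no comparison between conditions could be tested, and all comparisons between kinds of interval describe this 1 ChIP library. Shares carry exact Clopper-Pearson 95% intervals, and medians carry exact binomial 95% intervals. These cover counting error only, not biological variation. The tissue is a mixture of cells, and ChIP intervals do not measure expression, so the labelled tissue could not be checked against marker transcripts. All positions refer to the mouse genome in build NCBIM37 (mm9).

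LHX6 acts with the related LHX8 in the development of the palate and teeth. Homeodomain proteins bind short DNA words built on a TAAT or TGAT core, and basic helix-loop-helix factors such as TWIST1 bind E-boxes, words of the form CANNTG. Introns near a gene start commonly hold enhancers, which bind such factors and act on a promoter from a distance. In the facial mesenchyme, homeodomain and basic helix-loop-helix factors share many enhancers. The hexamers followed here were TGATTG with TGATTA and TAATTA, grouped as homeodomain-type, and the E-boxes CATCTG and CAGCTG, each counted on both strands and with overlaps allowed. TGATTG and TGATTA and the E-boxes had come out of an earlier scan of the same library, so their presence at summits is a description here and not independent evidence.

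The 6 highest proximal intragenic intervals are shown first, chosen by height. The words lay within 100 bp of the point of highest fragment density, but not always at it. In Bmp6, for example, they lay 63 bp before the summit and 49 bp after it. Each stretch is the 200 bases around the summit from the NCBIM37 genome, with the 5 hexamers in capitals on whichever strand they occur.
Wnt11, chr7:105992221-105992420, plus strand: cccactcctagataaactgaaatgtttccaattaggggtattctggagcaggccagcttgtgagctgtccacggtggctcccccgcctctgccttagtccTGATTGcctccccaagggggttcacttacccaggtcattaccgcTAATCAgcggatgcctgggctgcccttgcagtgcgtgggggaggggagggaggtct
Mnd1, chr3:83943549-83943748, plus strand: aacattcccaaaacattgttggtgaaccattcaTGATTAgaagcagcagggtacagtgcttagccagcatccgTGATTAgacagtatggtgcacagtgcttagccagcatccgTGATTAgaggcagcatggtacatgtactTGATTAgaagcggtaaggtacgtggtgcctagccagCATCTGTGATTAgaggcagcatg
Gm1574, chr13:46383901-46384100, plus strand: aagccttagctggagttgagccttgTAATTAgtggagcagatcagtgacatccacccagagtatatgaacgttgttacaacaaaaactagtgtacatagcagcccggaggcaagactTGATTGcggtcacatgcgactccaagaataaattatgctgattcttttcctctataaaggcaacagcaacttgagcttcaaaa
Cnga3, chr1:37288221-37288420, plus strand: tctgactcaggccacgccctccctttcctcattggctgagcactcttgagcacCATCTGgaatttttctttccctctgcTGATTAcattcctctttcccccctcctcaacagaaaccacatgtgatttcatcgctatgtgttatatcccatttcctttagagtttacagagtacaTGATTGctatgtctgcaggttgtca
Bmp6, chr13:38443869-38444068, plus strand: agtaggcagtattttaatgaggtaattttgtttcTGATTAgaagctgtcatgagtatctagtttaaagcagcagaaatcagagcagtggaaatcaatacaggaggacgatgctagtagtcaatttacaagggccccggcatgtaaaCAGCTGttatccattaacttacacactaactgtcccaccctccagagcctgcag
LOC100040810, chr3:154130877-154131076, plus strand: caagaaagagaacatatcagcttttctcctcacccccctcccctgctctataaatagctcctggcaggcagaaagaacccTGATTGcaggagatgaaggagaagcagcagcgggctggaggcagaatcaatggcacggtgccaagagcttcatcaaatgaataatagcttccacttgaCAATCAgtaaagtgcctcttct

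All 6 held at least 1 homeodomain-type hexamer. In Wnt11 a TGATTG began at the base after the summit, at chr7:105992321-105992326, and a TGATTA lay on the minus strand at chr7:105992365-105992370. In Mnd1 the window held 5 copies of TGATTA on the same strand, whose starts were 40, 40, 28 and 42 bp apart within repeated sequence, and the last directly followed a CATCTG. Cnga3 had 1 CATCTG, 1 TGATTA and 1 TGATTG.

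Windows of 3 facial transcription factor genes, chosen after their values were seen, show the words in introns of named regulators of this tissue.
Tcfap2b, chr1:19215581-19215780, plus strand: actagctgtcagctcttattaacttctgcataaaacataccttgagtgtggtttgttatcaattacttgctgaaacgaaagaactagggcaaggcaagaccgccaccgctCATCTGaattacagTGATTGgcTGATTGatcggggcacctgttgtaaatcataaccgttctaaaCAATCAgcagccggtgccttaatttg
Ebf3, chr7:144495677-144495876, plus strand: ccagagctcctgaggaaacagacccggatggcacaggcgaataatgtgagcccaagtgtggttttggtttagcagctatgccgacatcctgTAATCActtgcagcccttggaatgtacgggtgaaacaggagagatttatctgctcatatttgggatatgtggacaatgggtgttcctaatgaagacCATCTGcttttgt
Prrx1, chr1:165235117-165235316, plus strand: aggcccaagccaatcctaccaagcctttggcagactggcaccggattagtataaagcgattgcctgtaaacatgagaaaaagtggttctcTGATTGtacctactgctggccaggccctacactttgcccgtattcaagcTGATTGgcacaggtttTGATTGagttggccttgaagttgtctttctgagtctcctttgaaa

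In Tcfap2b, 1 CATCTG and 2 copies of TGATTG lay between chr1:19215691 and 19215718, and another TGATTG lay on the minus strand at chr1:19215755-19215760. The Prrx1 window had 3 copies of TGATTG on the same strand and no E-box of either kind.

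Heights, the highest density of 150 bp fragments in an interval, ran from 12 to 131 with a median of 22 (21 to 24; interquartile range 18 to 29), and the median length was 805.5 bp. The highest proximal intragenic interval was in intron 3 of Wnt11, a secreted WNT ligand, 4.97 kb from the start (chr7:105991892-105992852), with a height of 131. The next was in intron 2 of Mnd1, which acts in meiotic recombination, with a height of 73 (chr3:83943132-83944104). The gap between these was larger than that between any other neighbours in the order.

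The next pair lay in intron 2 of Gm1574, now called Stmnd1, with a height of 66, and in intron 1 of Cnga3, a photoreceptor ion channel gene, with a height of 65. Below them came intron 2 of Bmp6, a bone morphogenetic protein (height 55, chr13:38443511-38444414), LOC100040810 (54), intron 2 of the planar cell polarity gene Prickle2 (52, chr6:92654426-92655202), and 3 intervals of height 51. These were intron 1 of the growth factor gene Fgf2 (chr3:37252774-37253397), intron 1 of the interleukin-1 receptor gene Il1r1 (chr1:40293300-40294014), and LOC100040493. Heights of 50 were found in intron 3 of 1110017I16Rik, now Ucma, a cartilage matrix protein gene (chr2:4898856-4899885), and in intron 1 of AW456874, now Ptpdc1.

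Intron 3 of Tcfap2b, which encodes the neural crest factor AP-2 beta and is now Tfap2b, had a height of 49 (chr1:19215352-19216140). Intron 2 of the basic helix-loop-helix gene Atoh8 had a height of 48 (chr6:72166341-72167531), and LOC100040030 had 46. Of these 15, 13 had a homeodomain-type hexamer within 100 bp of the summit, 12 had an E-box hexamer, and 13 lay in an intron by GENCODE. The highest interval below these 15 also had a height of 46. The 2 of the 15 outside introns, at LOC100040810 and LOC100040030, lay outside every gene of the GENCODE M1 annotation.

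**Figure D1:**
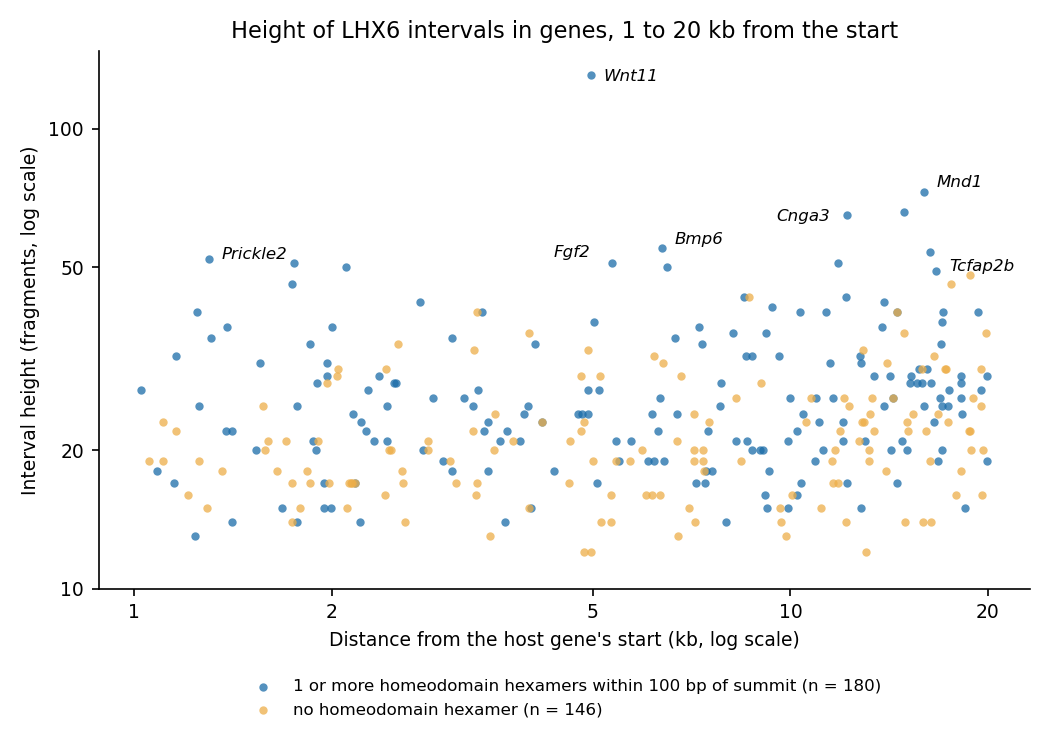
Height of each of the 326 intervals (fragments, log scale) against its distance from the host gene's start (kb, log scale); blue points have at least 1 homeodomain-type hexamer in the window of 200 bp and yellow points have none. Wnt11 stands alone at 131, and all 12 intervals of height 50 or more are blue.

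Set against the other intervals inside genes without a CpG island, those near the start were less often among the highest, though the 95% intervals of the shares overlap. A height of 50 or more was reached by 3.68% (1.92 to 6.34) of the proximal intragenic intervals, by 7.58% (5.36 to 10.3) of the 475 intervals 20 to 100 kb from a start, and by 6.97% (5.07 to 9.30) of the 603 over 100 kb from it. Their median heights were 22, 23 (22 to 24) and 24 (23 to 25). The 392 intervals beside genes had a median of 22 (21 to 22), as did all 6566 intervals. Over all 6566, 4.66% (4.16 to 5.20) reached a height of 50 or more, a share that the proximal 95% interval includes. The share was 6.12% beside genes and 7.78% with no gene listed and no CpG island. It was 2.54% at CpG islands away from starts and 1.40% within 1 kb of a listed start. No proximal intragenic interval overlapped any of the 6 input intervals, and the nearest input summit on the same chromosome was 86624 bp away. With only 6 input intervals, and 284 kb of the genome covered by the proximal intragenic ones, an overlap was unlikely in any case. Its absence therefore cannot show that these intervals are free of background, and no such count is given for the other kinds of interval.

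The intervals lay mostly in introns. By GENCODE M1, 259 summits (79.4%, 74.6 to 83.7) were in an intron, 10 in a coding exon, 13 in an untranslated exon and 16 in an exon of a noncoding transcript. The remaining 28 lay outside annotated genes, and 19 of these had a predicted gene with a LOC name as host. Counted next were 261 summits intronic in some transcript of a matched host, including some that are exonic in another transcript. In the longest host transcript where the summit was intronic, 139 (53.3%, 47.0 to 59.4) lay in the first intron, 58 (22.2%) in the second and 64 (24.5%) in a later one. First introns make up 47.0% of the intronic sequence 1 to 20 kb from the starts of protein-coding genes, second introns 18.99% and later introns 34.0%. The lower bound for first introns thus lay at their share of the sequence, and the upper bound for later introns lay below theirs. Exons of any kind held 11.96% of summits, counting exons of all transcripts, noncoding ones included. In the longest transcripts of protein-coding genes, exons made up 9.00% of the whole sequence 1 to 20 kb from the start, a narrower definition that cannot be set directly against that share.

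The label of 1 to 20 kb from the start held for most hosts in a second annotation. Of 288 intervals whose host name matched 1 GENCODE gene, 260 (90.3%, 86.3 to 93.4) lay inside it and 1 to 20 kb from its start. A GENCODE protein-coding transcript start lay within 1 kb of 17 summits (5.21%), and a start of any transcript within 1 kb of 39 (11.96%). The authors' annotation counted at least 1 promoter for more of the intervals, 99 of the 326 (30.4%). It did so for 1.26% of intervals 20 to 100 kb from a start, 0.66% beyond 100 kb and 42.6% beside genes. Host genes had a median length of 44.2 kb (interquartile range 20.8 to 99.5 kb), and 67 of the 288 lay in hosts of 20 kb or shorter.

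At the limits of the rule, the intervals just inside were those of LOC100039788 (1024 bp, height 27) and Ppp1r10 (1054 bp, height 19) at the lower end. At the upper end they were those of Alx4 (19937 bp, height 19) and Gm207 (19965 bp, height 29). Just outside were those of Fign (992 bp, height 19) at the lower limit, and of Pscd3 (20117 bp, height 26) and E130016E03Rik (20185 bp, height 20) at the upper limit.

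Within the 20 kb, the number of intervals per length of gene was highest next to the start and lowest from 5 to 20 kb. Of protein-coding gene sequence, the part 1 to 2 kb from the start had 1.94 intervals per Mb (Poisson 95% interval 1.37 to 2.66) and the part 2 to 5 kb from it 1.31 (1.02 to 1.66). From 5 to 10 kb there were 0.872 (0.673 to 1.11), and from 10 to 20 kb 0.893 (0.728 to 1.08). Farther inside genes the density was higher again, at 1.18 (1.07 to 1.29) from 20 to 100 kb and 1.54 (1.41 to 1.67) beyond 100 kb. With CpG island intervals and those close to a second gene's start counted too, the densities were 6.69, 2.27, 1.21, 1.15, 1.27 and 1.57 per Mb in the same order. Most intervals 1 to 2 kb from a start were thus outside the rule, and the steepness of the decline near starts depends on its conditions.

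Median height was 21 (18 to 23) in the 51 intervals 1 to 2 kb from the start, 22 (20 to 24) in the 80 at 2 to 5 kb, 20 (19 to 23) in the 77 at 5 to 10 kb, and 25 (23 to 26) in the 118 at 10 to 20 kb. The 95% interval of the last touched or overlapped those of the other distances.

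Of the homeodomain-type hexamers, TGATTG and TGATTA were concentrated at the summits, and TAATTA much less so. TGATTG occurred within 100 bp of 118 summits (36.2%, 31.0 to 41.7), against 7.06% of windows 2 kb to either side and 32.3% of all LHX6 summits. TGATTA occurred at 92 summits (28.2%, 23.4 to 33.4), against 7.52% of flanks and 23.0% of all LHX6 summits. TAATTA, the LIM homeodomain core, occurred at 26 (7.98%, 5.28 to 11.47), against 4.60% of flanks and 8.73% of all LHX6 summits. TAATTA was the least frequent of the 5 hexamers followed. At least 1 of the 3 was present at 180 summits (55.2%, 49.6 to 60.7), against 18.1% of flanks and 50.1% of all LHX6 summits. The 95% intervals for TGATTG and for TAATTA and for the 3 together include the share over all LHX6 summits, and that for TGATTA lies just above it. All LHX6 summits include those within 1 kb of a listed start, where TGATTA stood at 4.89%, against 7.56% of their flanks. TAATTA stood at 1.87% there, against 5.61%, but TGATTG at 22.6%, against 7.92%. The 3 words grouped here thus did not behave alike at starts. In intervals with no gene listed and no CpG island, TGATTA stood at 37.1%.

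E-boxes were frequent too. CATCTG occurred at 92 summits (28.2%, 23.4 to 33.4), against 11.503% of flanks and 21.7% of all LHX6 summits, and CAGCTG at 65 (19.9%, 15.7 to 24.7), against 9.82% and 16.3%. The 95% interval for CAGCTG includes the share over all LHX6 summits, and that for CATCTG lies above it. The share over all summits takes in those within 1 kb of a listed start, where CATCTG stood at 6.75%. In the other kinds of interval away from starts and without a CpG island, CATCTG was more frequent than in the proximal ones, with overlapping 95% intervals. It stood at 30.9% at 20 to 100 kb, 31.5% beyond 100 kb, 33.2% beside genes and 34.9% with no gene listed. A homeodomain-type hexamer and an E-box hexamer shared the window at 77 summits (23.6%, 19.1 to 28.6), against 2.91% of flanks and 18.6% of all LHX6 summits. The share was 29.5% at 20 to 100 kb from a start, 32.2% beyond 100 kb and 25.5% beside genes. Taken singly, 55.2% of proximal intragenic summits held a homeodomain-type hexamer and 42.6% an E-box hexamer. Whether the 2 kinds met more often than these single shares alone would give was not tested. Among 51 intervals with a pair at most 40 bp apart, no orientation and spacing was shared by more than 2. The pairs fell into 69 arrangements and spacings, so 51 intervals are too few to show whether any is preferred.

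**Figure D2:**
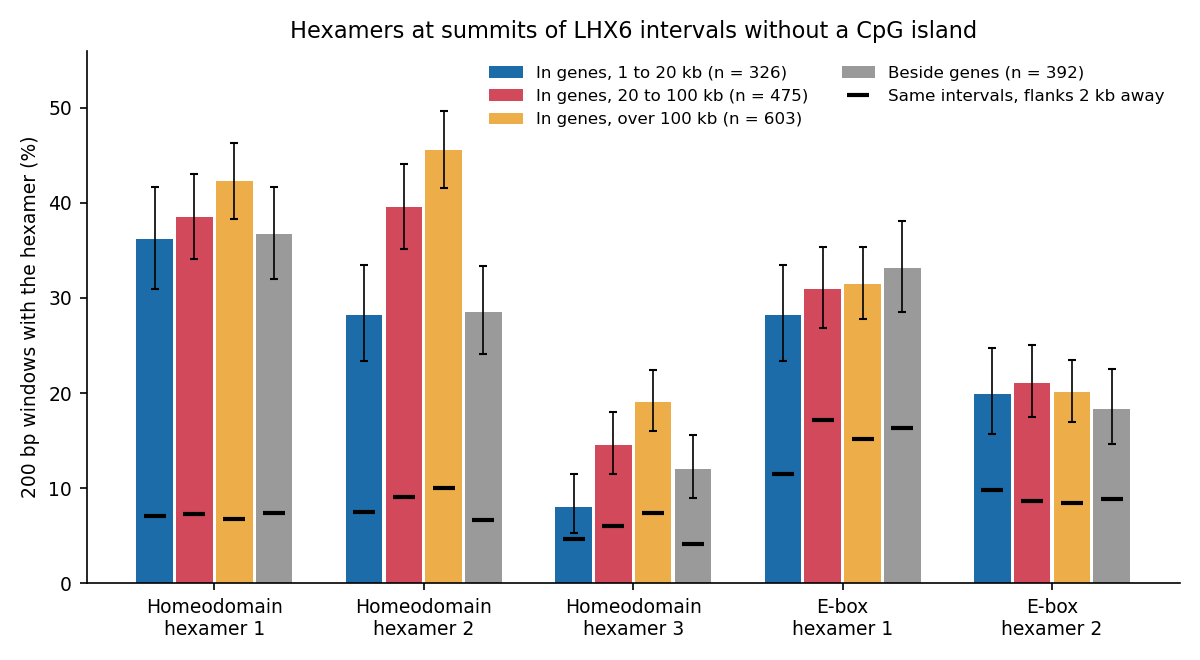
Share of 200 bp windows (%) with each hexamer at the summits of 4 kinds of interval without a CpG island, with Clopper-Pearson 95% intervals; black dashes give the flanks of the same intervals 2 kb away. Homeodomain hexamers 1 to 3 are TGATTG and TGATTA and TAATTA, and E-box hexamers 1 and 2 are CATCTG and CAGCTG. The hexamer TGATTA stands at 28.2% in the intervals 1 to 20 kb from the start, 39.6% at 20 to 100 kb and 45.6% beyond 100 kb.

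Deeper intervals in genes held the homeodomain-type words more often. TGATTA was present at 28.2% (23.4 to 33.4) of proximal intragenic summits, 39.6% (35.2 to 44.1) of those 20 to 100 kb from the start and 45.6% (41.6 to 49.7) of those beyond 100 kb. TAATTA was present at 7.98% (5.28 to 11.47), 14.5% (11.48 to 18.02) and 19.1% (16.01 to 22.4), and any of the 3 hexamers at 55.2% (49.6 to 60.7), 69.9% (65.5 to 74.0) and 76.5% (72.9 to 79.8). For TGATTA and for the 3 together, the 95% interval of the proximal share lay below those of both deeper groups, and for TAATTA it lay just below that of the group at 20 to 100 kb. TGATTG differed less, with 36.2% (31.0 to 41.7), 38.5% (34.1 to 43.1) and 42.3% (38.3 to 46.3), and the E-boxes CATCTG (28.2%, 30.9% and 31.5%) and CAGCTG (19.9%, 21.1% and 20.1%) had overlapping intervals. Intervals beside genes were close to the proximal ones, with TGATTA at 28.6% (24.1 to 33.3) and any of the 3 at 61.0% (55.9 to 65.8).

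Base composition moved along with these shares. Mean GC content of the summit windows was 48.2% in proximal intragenic intervals, 46.8% at 20 to 100 kb and 44.2% beyond 100 kb, and TGATTA in the flanks stood at 7.52%, 9.05% and 10.03%. The ratio of summits to flanks for TGATTA was 3.76, 4.37 and 4.55. The part of base composition in the differences between these groups was not tested.

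Among the proximal intragenic intervals themselves, the summit shares of the homeodomain-type words showed no order by distance while those of the E-boxes did. Any of the 3 homeodomain-type hexamers was present at 58.8% (44.2 to 72.4) of summits 1 to 2 kb from the start, 51.2% (39.8 to 62.6) at 2 to 5 kb, 58.4% (46.6 to 69.6) at 5 to 10 kb and 54.2% (44.8 to 63.4) at 10 to 20 kb. Either E-box was present at 29.4% (17.5 to 43.83), 33.8% (23.6 to 45.2), 44.2% (32.8 to 55.9) and 53.4% (43.98 to 62.6) in the same order. The 95% intervals of the first and the last of these lay next to each other, the one ending at 43.83 and the other starting at 43.98. Flanks held an E-box in 18.6%, 15.6%, 20.8% and 22.9%, which do not follow the same order at every step. A homeodomain-type hexamer was present in 11.8%, 13.75%, 20.1% and 22.5% of flanks, which rose at every step. Relative to their flanks, the homeodomain-type words at summits thus stood out most next to the start and least at 10 to 20 kb. Of the 17 summits near a GENCODE protein-coding start, 10 were among the 51 intervals closest to the host's start.

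**Figure D3:**
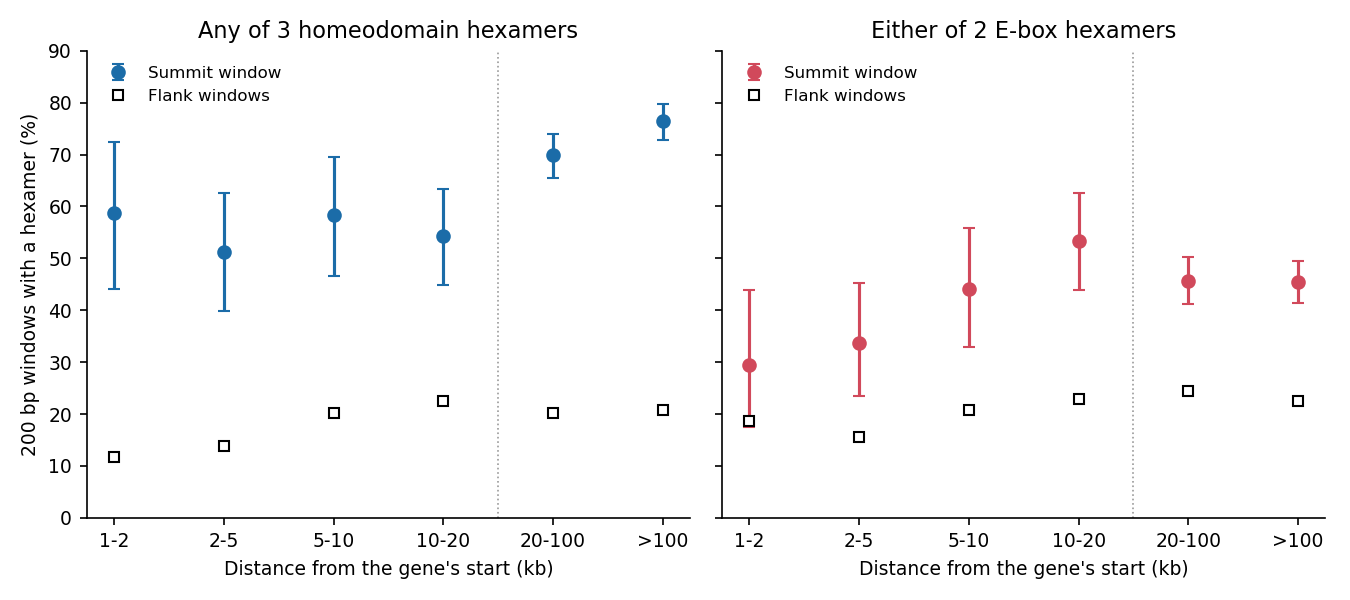
Share of 200 bp windows (%) with a homeodomain-type hexamer (left) or an E-box hexamer (right) against distance from the gene's start (kb), at summits (filled, with Clopper-Pearson 95% intervals) and in flanks (open); points right of the dotted line are the intervals 20 to 100 kb and over 100 kb from a start. At summits, homeodomain-type hexamers stay between 51.2% and 58.8% up to 20 kb and reach 69.9% and 76.5% beyond. E-boxes at summits range from 29.4% at 1 to 2 kb to 53.4% at 10 to 20 kb and stand at 45.7% and 45.4% beyond. In flanks, homeodomain-type hexamers rise from 11.8% at 1 to 2 kb to 22.5% at 10 to 20 kb.

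TGATTG and TGATTA lay close to the summit. Of 218 TGATTG sites within 300 bp of a summit, 111 were within 50 bp and 9 were over 250 bp away, and for TGATTA 89 of 201 were within 50 bp and 21 over 250 bp away. Among intervals with a site, the nearest TGATTG was a median of 43.5 bp and the nearest TGATTA 44 bp from the summit. CATCTG and CAGCTG were spread more widely, with 74 of 255 and 45 of 176 sites within 50 bp and medians of 81 and 93 bp. TAATTA had 16 of 73 sites within 50 bp and a median of 126 bp. The peak of TGATTG sites lay to the right of the summit on the genome's plus strand, with 69 sites in the 50 bp after it and 42 in the 50 bp before it. TGATTA had 55 and 34 there, and CATCTG 31 and 42. Within 100 bp of the summit, the median signed position was 18 bp for TGATTG, 14 bp for TGATTA and 19 bp for TAATTA. For CATCTG it was 2 bp and for CAGCTG -5 bp. Deposited summits lie on a grid of 16 bp in 97.5% of all intervals, which limits the precision of such offsets. What sets these offsets was not tested.

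**Figure D4:**
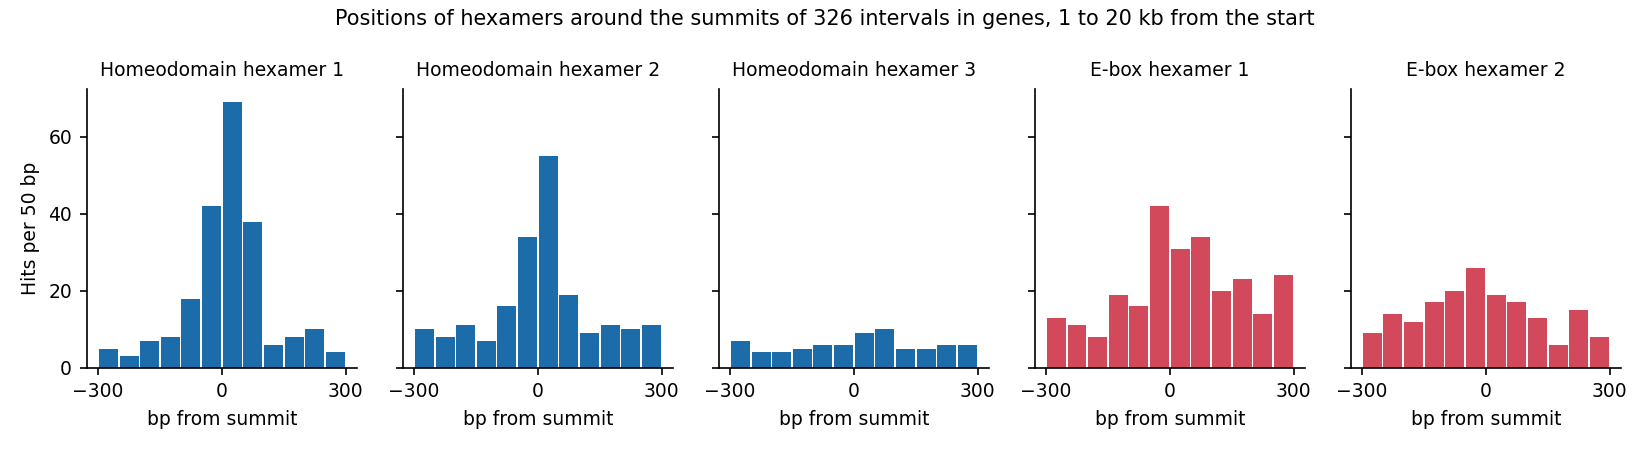
Number of hexamer sites per 50 bp against position from the summit (bp, plus strand of the genome) in the 326 intervals; homeodomain hexamers 1 to 3 are TGATTG and TGATTA and TAATTA, and E-box hexamers 1 and 2 are CATCTG and CAGCTG. The hexamer TGATTG reaches 69 sites and TGATTA 55 sites in the 50 bp after the summit, and both fall off within 100 bp, while the E-boxes decline more slowly.

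Intervals with these words were higher. The 180 with a homeodomain-type hexamer had a median height of 25 (23 to 26; range 13 to 131) and the 146 without one had 20 (19 to 21; range 12 to 48), and the ranges overlap widely. With 1, 2 and 3 or more sites the medians were 24 (21 to 26), 27 (24 to 31) and 24 (21 to 31). E-boxes showed a like pattern: intervals with both kinds of word had a median of 27 (23 to 29), those with only a homeodomain-type hexamer 24 (22 to 25), those with only an E-box 23 (20 to 26), and those with neither 19 (17 to 20). Seen from the heights, 35.2% (24.2 to 47.5) of intervals of height 12 to 17, 48.7% (37.2 to 60.3) of those of 18 to 21, 63.0% (52.3 to 72.9) of those of 22 to 28 and 69.4% (58.5 to 79.0) of those of 29 or more held a homeodomain-type hexamer. Mean GC content was 46.7% with and 50.03% without such a hexamer; its part in the heights was not tested.

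The 326 intervals lay in 307 host genes, of which 263 matched a RefSeq protein-coding gene, or 1.22% of the 21631 such genes. Of these 263 hosts, 54 (20.5%, 15.8 to 25.9) also had an LHX6 interval within 1 kb of their start, against 11.1% (10.7 to 11.54) of other protein-coding genes. Every host has an LHX6 interval by definition, but only 4601 of the 21631 protein-coding genes (21.3%) had any listed. Other genes with a start interval numbered 2375, a large part of those 4601. Set beside genes with any interval, 20.5% is thus not a high share. The part of gene length in these shares was not tested. Counting hosts of every kind, 60 of 307 had a start interval and 131 had some other LHX6 interval listed. Another LHX6 interval lay within 5 kb of 65 proximal intragenic intervals (19.9%), and the nearest one was at a start or a CpG island in 41 of these. With the other 24 alone the share was 7.36% (4.77 to 10.8), beside 8.21% (5.90 to 11.1) of intervals 20 to 100 kb from a start counted in the same way.

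Only 16 hosts had 2 or more proximal intragenic intervals. Prrx1, a homeobox gene of limb and facial mesenchyme, had 4, at 4.79, 8.56, 11.1 and 12.2 kb from its start, with heights of 22, 32, 15 and 14, all within its first intron except that the one of height 15 also overlaps an exon of a noncoding transcript. The interval of height 32 (chr1:165234905-165235681) is the one whose sequence is printed above, and the other 3 held no homeodomain-type hexamer within 100 bp of the summit. Prrx1 had 3 further intervals, 1 of height 40 at a CpG island 1.19 kb from the start and 2 at 49.8 and 60.6 kb with heights of 23 and 20.

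LOC100042464, a predicted gene on chromosome 9 listed together with the microRNA gene Mirn125b-1, which starts within it, had 3, with heights of 42, 24 and 25 at 2.73, 4.81 and 12.3 kb. Ebf3, a factor of the mesenchyme and of neurons, had 2 in intron 6 with heights of 40 and 36 (chr7:144495324-144496256 and chr7:144485975-144486757). Atoh8 had 2 in intron 2 with heights of 23 and 48, the lower one nearer the start. Eya1, a coactivator of sine oculis homeobox factors, had 1 of height 24 at 3.54 kb and 1 of height 30 at 16.2 kb, and its highest interval, 59, lay 125 kb inside the gene. Ncald, a neuronal calcium sensor gene, had heights of 31 and 27 at 1.97 and 3.35 kb, with 3 and 2 copies of TGATTG. LOC100040493 had heights of 51 and 31, and LOC100040030 had 26 and 46.

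**Figure D5:**
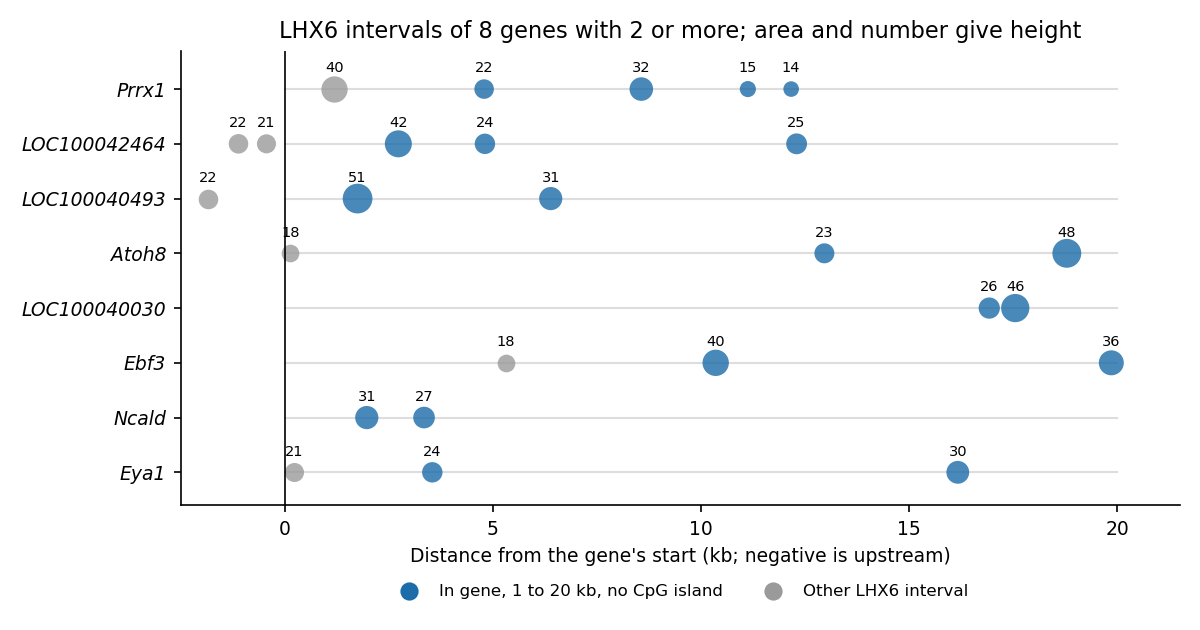
Distance from the gene's start (kb) of the LHX6 intervals from upstream to 20 kb inside 8 host genes with 2 or more proximal intragenic intervals, hosts tied at 2 being taken by their highest interval; the area of a circle and the number above it give the height (fragments). Blue circles are the proximal intragenic intervals, 4 of them in Prrx1, and grey circles are other LHX6 intervals.

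Hosts included genes of the facial mesenchyme and of the extracellular matrix, by lists that were chosen with earlier results of these data known. All 16 lists together had 45 hosts among 496 genes (9.07%), and the share to set beside each list is the 1.22% of all protein-coding genes. Of 72 transcription factor genes of the facial mesenchyme, 14 (19.4%, 11.1 to 30.5) were hosts, and they held 20 intervals. Their median height was 19.5, below the 22 of all 326, and 7 of the 20 had a homeodomain-type hexamer, beside 55.2% of all 326. The list's genes have LHX6 intervals of any kind in 55 cases, so 25.5% of those with an interval were hosts, beside 5.72% of all genes with an interval. Over all 16 lists together, 19.7% of the genes with an interval were hosts. Tfap2b (49), Ebf3 (40 and 36), Prrx1 and Eya1 gave the highest. Below 30 came Mef2c, a MADS-box factor (height 26 in intron 1), the T-box gene Tbx3 (23 and 15, both in intron 4), and the homeobox genes of craniofacial patterning Dlx1 (20, in an untranslated exon) and Alx4 (19). The other 6 were Zfhx3 (17), Tbx15 (16), Pax9 (15), Nr2f2 (14), Tfap2a (14) and Nr2f1 (12).

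Extracellular matrix genes were hosts in 9 of 44 cases (20.5%, 9.80 to 35.3), with a median height of 22. Col4a1, a basement membrane collagen gene (chr8:11298126-11298921, intron 1), and the fibrillin gene Fbn1 (chr2:125326941-125327648, intron 1) both had a height of 29. Col26a1 and the hyaluronan synthase gene Has2 both had 24, Eln (elastin) and the glypican gene Gpc3 both had 22, and Col6a3 (18), Col2a1 (17) and Lama4 (17) followed. The laminin gene Lama3, a host with a height of 40, was not on the list and is named after its value was seen. Of the 9 on the list, 5 had a homeodomain-type hexamer, beside 55.2% of all 326 intervals. Actin cytoskeleton and adhesion genes were hosts in 5 of 38 cases (13.2%, 4.41 to 28.1): Cnn3 (25), Tns3 (22), Actn4 (20), Tpm1 (16) and Flna (15).

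BMP and TGF-beta genes were hosts in 4 of 39 cases (10.3%, 2.87 to 24.2), led by Bmp6 (55), with Id2, an inhibitor of basic helix-loop-helix factors (25), the inhibitory SMAD gene Smad7 (21) and the BMP-binding protein gene Twsg1 (21). All 4 held a homeodomain-type hexamer, beside 55.2% of all 326 intervals, and 4 are too few to read as a difference. WNT genes were hosts in 5 of 59 (8.47%, 2.81 to 18.7), where Wnt11 (131) stood apart from the WNT inhibitor receptor gene Kremen1 (21), the feedback inhibitor gene Axin2 (19), the nuclear effector gene Lef1 (17) and the ligand gene Wnt5a (17). FGF and PDGF genes gave 2 of 28, the ERK phosphatase gene Dusp6 (19, in a coding exon) and Fgf7 (18). Fgf2, named above with a height of 51, was not on that list. Ephrin, semaphorin and guidance genes gave 2 of 39, Ephb3 (32) and Slit2 (25), the hedgehog pathway 1 of 15 (Gli1, 17) and the Notch pathway 1 of 21 (Jag2, 14).

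Lhx6 itself was the only host among 18 LIM homeodomain and cofactor genes, with heights of 16 and 14 in introns 4 and 8, 6.16 and 15.9 kb from its start, both under the median. None of 26 cell cycle inhibitor and G1 regulator genes was a host, and 13 had an LHX6 interval elsewhere; the interval of this share reaches 13.2%, beside 1.22% of all protein-coding genes. None of the genes listed as markers of facial epithelium (25), endothelium (19), blood cells (18) and neurons and glia of cranial ganglia (22) was a host, and 1 of 14 head muscle genes was (Chrna1, height 19). The intervals of these 4 marker lists without a host reach 13.7%, 17.6%, 18.5% and 15.4%, so lists of these sizes could not show a share below the 1.22% of all genes. Gene length and the number of genes with any interval differ between lists, and their part in these counts was not tested.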

How the data were processed

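The deposited table lists enriched intervals of the LHX6 ChIP library and of the input library. Reads were aligned with BWA to mm9 and extended to 150 bp fragments, per the labels' protocols, and MACS is named, without a version, per the submitters' processing notes. The sources used here give neither its settings nor read totals. The deposited signal values are the highest and the mean fragment density over 32 bp bins of an interval, and whether they were scaled between libraries is not stated. The H3K27ac experiment in the labels' protocols was not analysed here.

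Intervals were classed by the authors' CpG island counts, gene positions and distances. Chromosome lengths of NCBIM37 were compared with the intervals (0 past a chromosome end), and 73.3% of 288 host distances lay within 200 bp of those from GENCODE M1. Older gene names were matched through RefSeq (GRCm38.p6), from which no coordinate was taken: of 307 hosts, 227 matched by symbol, 47 by synonym and 11 by gene ID. Intron numbers are those of the host's longest GENCODE transcript among those in which the summit is intronic. Hexamers were counted in 200 bp windows centred on the summit and on positions 2 kb to each side. Work was done in Python 3.11.15 with scipy 1.17.1, and the functions were tested on simulated data.

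The intervals and the 16 gene lists were chosen with earlier results of these data known. Named genes were the hosts of the 15 highest intervals, the 8 hosts with most (ties by their highest interval), up to 4 hosts per list by height, and those at the limits of the rule; further list hosts were named after their values were seen. One interval just outside the lower limit is not reported here.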

Additional observations from a re-analysis of the deposited data

How the results depend on the processing

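Of 36 alternative values, 20 stayed within the interval of the reported value or within 1.5 times a count, and 16 moved; 9 of the 36 were chosen after seeing the data, and none of those 9 moved. The number of proximal intragenic intervals was 208 with an upper limit of 10 kb, 492 with 40 kb, 545 without the CpG island condition and 177 with only heights of 22 or more; with that last condition 19 in place of 45 genes of the lists were hosts. The median of mean density, another quantity than height, was 10.2. Hexamer shares follow the width of the window by construction. Within 50 bp of the summit they were 25.8% for TGATTG, 22.1% for TGATTA, 3.99% for TAATTA and 19.3% for CATCTG, against 3.68%, 3.53%, 2.30% and 6.29% in flanks. Within 250 bp they were 45.4%, 36.8%, 15.6% and 45.7%, against 19.6%, 15.3%, 11.503% and 30.4%. TGATTG was present at 30.1% of windows around the middle of the interval, and at 42.4% of summits in intervals of height 22 or more. With 1 library per group and unknown read totals, neither biological spread nor the effect of depth on which intervals were called could be measured.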

Other observations

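Words of other factor families were counted in the same windows. TGTGGT, the core bound by RUNX factors, occurred at 19.9% (15.7 to 24.7) of proximal intragenic summits and in 13.3% of flanks, and GGAATG, bound by TEAD factors, at 15.03% (11.3 to 19.4) and in 11.2%. TGTTTA of forkhead factors had 16.9% and 14.7%, TGACAG of TALE factors 13.8% and 12.1%, and TTGGCA of NFI factors 11.7% and 9.36%. ACAATG of SOX factors was below its flanks, at 7.06% (4.52 to 10.4) and 10.1%. The heptamer TGACTCA of AP-1 had 3.37% and 1.84%. The core of the CTCF motif was present at 2 of 326 summits (0.613%) and in 0 of 652 flank windows, which allows a share of up to 0.460% by the limit of 3 counts.

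The bases after the hexamer were not even. Of 166 TGATTG sites within 100 bp of a summit, 27 (16.3%, 11 to 22.8) were followed by CA, against 3 of 48 sites in flanks (6.25%, 1.31 to 17.2), and 18 (10.8%) were followed by AT. These were chosen after seeing the counts. Among hosts outside the lists, the gene that the deposited table calls 2310043N10Rik had intervals of height 20 and 23, neither with a homeodomain-type hexamer. GENCODE M1 places both in a noncoding exon of Malat1, a nuclear long noncoding RNA gene, while the deposited name is a RefSeq synonym of Neat1. Ntf3, the neurotrophin-3 gene, had 2 of height 20 and 19, and Dph4, now Dnajc24, had 2 of height 28 and 24 that both held TGATTG and TGATTA.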
